A study of Mus musculus with 41 samples.

Results

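Gene expression in mouse cells given guides against Brd8 was compared with that in cells given a non-targeting guide (NT) at day 9 of differentiation towards spinal cord neural progenitors. The comparison rests on 5 of the 41 libraries of the study, 2 with Brd8 guides and 3 with NT, chosen by the genotype and day in their labels, and on 15204 of 24410 gene symbols that had enough counts to be tested. All cells came from R1-iCas9, a mouse embryonic stem cell line in which doxycycline switches on Cas9, and the protocol gives doxycycline before transfection with no exception for the controls, so both arms carried Cas9. The Brd8 cells, labelled Brd8 KO, were transfected at day 0 with a pool of 5 synthetic guides, and the NT cells with the supplier's non-targeting Control #1. Both were grown in N2B27 medium with bFGF, then with the GSK3β inhibitor CHIR99021, then with retinoic acid and the Smoothened agonist SAG, which activates Hedgehog signalling, and last with SAG alone. No cloning of transfected cells is described, so each library is a mixture of edited and any unedited cells, in proportions not analysed here. The same guides at day 7 and day 11 (3 libraries of Brd8 and 3 of NT at each day) and guides against Eed at day 9 (3 libraries), grown in the same way, also enter the comparisons.

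Brd8 encodes a bromodomain protein of the NuA4/TIP60 complex, which acetylates histones H4, H2A and H2A.Z and exchanges H2A.Z into chromatin at promoters and other regulatory sites. In the developing spinal cord, Hedgehog signalling from the ventral side represses dorsal and intermediate genes such as Pax3, Pax7 and Dbx1 and activates ventral genes such as Nkx2-2 and Olig2, while Gli3 is the main repressor form of the pathway's transcription factors. As cells leave the cell cycle they switch on neuronal genes, and the progenitors that remain later acquire gliogenic factors such as Nfia and Nfib.

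The 2 Brd8 libraries held 10944515 and 19306537 estimated counts, and the 3 NT libraries 12721067, 21477403 and 11195372. A count of 0 in 1 library allowed up to 0.267 and 0.153 CPM (counts set relative to the scaled size of each library) in the Brd8 libraries, and 0.234, 0.138 and 0.266 CPM in NT, from counting error alone. Of 10852 genes with a mean over 5 CPM across all 41 libraries, 9 to 12 were at 0 in a Brd8 library and 5 to 8 in an NT library. That mean covers other days and guides, so such a gene may be low at day 9. Whether these zeros come from the level or from the counting was not tested, and some may not be limits on a level. Rn45s, the ribosomal RNA precursor, took 7.4% and 8.13% of counts in the Brd8 libraries and 5.95% to 6.89% in NT, and its part in the results was not tested beyond leaving it out, which called 2340 genes. The Brd8 libraries correlated with each other less closely (Pearson's r of log2 CPM across genes 0.959) than the NT libraries did (0.974 to 0.975). Among 9405 genes with a mean over 10 CPM, 111 lay more than 2-fold apart between the 2 Brd8 libraries, against 27 to 38 between pairs of NT libraries. Replicate 2 lay further from NT than replicate 1 for 766 of the 1173 genes called higher and 838 of the 1187 called lower, and leaving it out changed the number of calls more than leaving out any other day 9 library. The labels do not say whether replicates were separate cultures, so p-values measure only the spread between libraries, which was estimated from all 15 groups of the study.

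The level of Brd8 transcript was 75.6 and 91.7 CPM in the Brd8 libraries, against 77.2, 80.6 and 83 CPM in NT. The groups overlapped, and the log2 fold change of 0.06 ± 0.105 (SE) did not pass (adjusted p = 0.752). It was -0.09 without Brd8 replicate 2. Small insertions and deletions made by Cas9 need not lower a transcript, so this level does not test the edit.

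Of the 15204 genes, 1173 (7.72%) were higher and 1187 (7.81%) lower in Brd8 cells than in NT cells at day 9, at an adjusted p under 0.05 in edgeR's quasi-likelihood test. The changes upward were larger: the median called gene was 1.66-fold higher or 1.47-fold lower, 374 genes (2.46%) rose and 207 (1.36%) fell by at least 2-fold, and 135 rose and 72 fell by at least 4-fold. The libraries of the groups did not overlap for 1159 of the genes called higher and 1174 of those called lower, while 22.3% of all tested genes had both Brd8 libraries above all of NT and 22.2% had both below. The median log2 fold change of all tested genes was -0.0036. Without Brd8 replicate 2, which left 1 Brd8 library with the spread taken from the other groups, 845 genes passed in place of 2360, and 767 of the 2360 passed in the same direction.

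**Figure D1:**
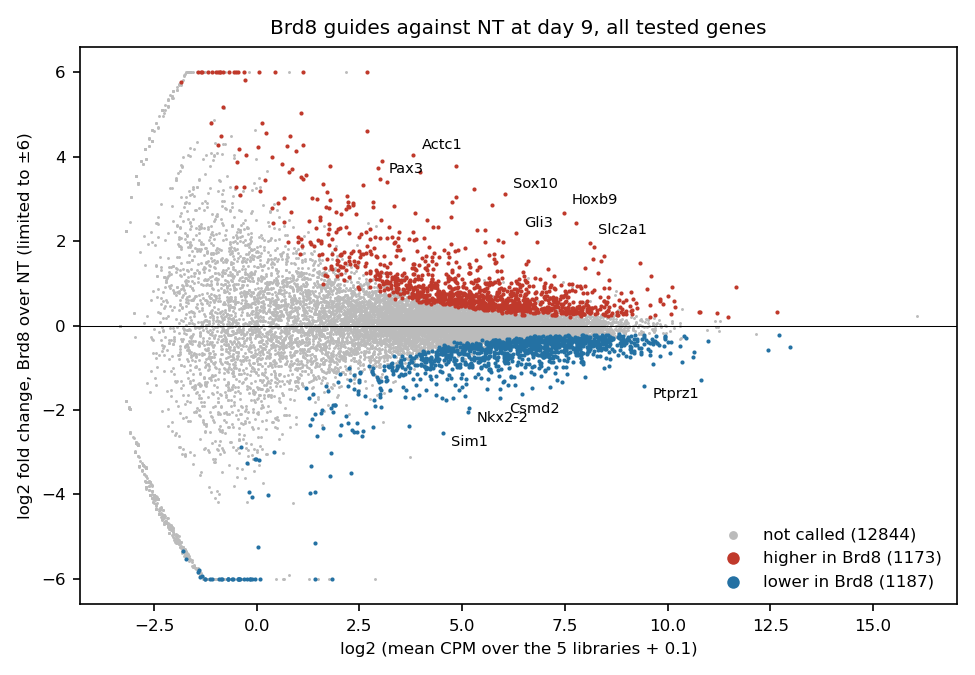
Log2 fold change at day 9, Brd8 over NT (vertical axis, limited to ±6), against log2 of the mean CPM of the 5 libraries (horizontal axis), 1 point per tested gene. The 1173 genes called higher are red, the 1187 called lower blue and the rest grey, and 374 of the red and 207 of the blue points lie at or beyond a 2-fold change.

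Of 18 genes listed for the NuA4/TIP60 complex itself, 1 rose and 1 fell, with a median log2 fold change of -0.06. These shares are near those of all tested genes, of which 7.72% rose and 7.81% fell, and 2 rose without Brd8 replicate 1. Ruvbl2, an ATPase shared by several chromatin remodellers, had 76.2 and 87.2 CPM in the Brd8 libraries, against 57.9, 71.7 and 51.6 CPM in NT (log2 fold change 0.43 ± 0.122, adjusted p = 0.012). The Brd8 values lay above all of NT, but the call was lost without Brd8 replicate 2 (0.33) or NT replicate 3 (0.33). The listed gene that fell was Actl6b, an actin-like paralogue of Actl6a that neurons use and a subunit of the neuronal BAF complex. It fell by 0.82 on the log2 scale (-0.44 without Brd8 replicate 2, where it did not pass). The acetyltransferase Kat5 had 30.5 and 28 CPM in the Brd8 libraries, against 36, 38.2 and 37.6 CPM in NT, below NT in both libraries, but missed the threshold (log2 fold change -0.35 ± 0.159, adjusted p = 0.132). Of 8 genes of the related SRCAP complex and of H2A.Z, both H2A.Z genes rose, H2afz with 279 and 345 CPM in the Brd8 libraries, against 218, 237 and 218 CPM in NT (log2 fold change 0.48 ± 0.0971, adjusted p = 0.000595) and H2afv by 0.48 ± 0.145 log2 units. Neither passed without Brd8 replicate 2 (0.31 and 0.34), and H2afv did not pass without NT replicate 3 either (0.42). Of 11 tested subunits of PRC2, another chromatin complex, 0 passed in edgeR, 5 had an unadjusted p under 0.05 and 1 passed by DESeq2, with a median of 0.19.

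Genes of the dorsal and intermediate spinal cord were higher in Brd8 cells, and 11 of the 23 on that list rose while 0 fell (median log2 fold change 2.06). Dbx1, a homeobox gene of the intermediate progenitor domains (GRCm38 chromosome 7, 49631499 to 49636849, as all gene positions here), had 77.6 and 143 CPM in the Brd8 libraries, against 12.3, 21.8 and 10.8 CPM in NT, 7.23-fold higher (log2 fold change 2.85 ± 0.355, adjusted p = 1.05e-06). Both Brd8 libraries lay above all of NT. Pax3 (chromosome 1, 78101267 to 78197134) and Pax7, paired-box genes of dorsal progenitors, were low in NT. Pax3 had 13.5 and 21.3 CPM in the Brd8 libraries, against 1.95, 1.28 and 1.6 CPM in NT (log2 fold change 3.46 ± 0.585, adjusted p = 6.34e-05). Pax7 had 5.78 and 7.15 CPM in the Brd8 libraries, against 0.701, 0.964 and 0.0887 CPM in NT (log2 fold change 3.37 ± 0.837, adjusted p = 0.00433). Both Brd8 libraries lay above all of NT for both genes. Zic1, a zinc finger gene of the dorsal neural tube, had 46.1 and 40.8 CPM in the Brd8 libraries, against 13, 12.9 and 13.6 CPM in NT (log2 fold change 1.72 ± 0.346, adjusted p = 0.000501), with little spread in either group. Dbx2, an intermediate progenitor gene, rose by 2.79 ± 0.688 log2 units to a mean of 6.82 ± 0.911 CPM in Brd8 cells, against 0.97 ± 0.642 CPM in NT cells (SD, n = 2 and n = 3). The roof plate ligand Wnt1 (3.73), the dorsal homeobox gene Msx3 (4.26) and Irx3 (1.24), a homeobox gene of progenitors dorsal to those of motor neurons, also rose. Without Brd8 replicate 2, Wnt1 (3.38) and Irx3 (0.81) did not pass and the list count was 6, and Msx3 did not pass without Brd8 replicate 1 (3.14). In bulk RNA, fewer cells of a type and less RNA per cell cannot be told apart, here and in every other result.

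Genes of the ventralmost progenitors were among those that fell. Of 17 ventral and Hedgehog response genes 5 fell and 3 rose, with a median of -0.72, but -0.46 leaving out Brd8 replicate 1 and -0.42 leaving out NT replicate 2, and the 3 that rose were Gli1, Gli2 and Gli3, the pathway's own transcription factors. Without the filter on low counts 8 fell. Sim1 (chromosome 10, 50894754 to 50989152), a transcription factor gene of the V3 interneurons that arise next to the floor plate, had 7.73 and 4.39 CPM in the Brd8 libraries, against 34.6, 43.6 and 25.4 CPM in NT, 5.85-fold lower (log2 fold change -2.55 ± 0.319, adjusted p = 1.21e-06). Nkx2-2 (chromosome 2, 147177546 to 147194243), which specifies the progenitors of those neurons, had 15.3 and 11.3 CPM in the Brd8 libraries, against 59.6, 53.9 and 38.2 CPM in NT (log2 fold change -1.94 ± 0.277, adjusted p = 7.29e-06). In both genes every Brd8 library lay below every NT library. Olig2, the determinant of motor neuron progenitors, had 107 and 89.6 CPM in the Brd8 libraries, against 168, 162 and 155 CPM in NT (log2 fold change -0.72 ± 0.185, adjusted p = 0.00584), and did not pass without Brd8 replicate 2 (-0.59). The Hedgehog receptor Ptch1, itself a target of the pathway, had 414 and 437 CPM in the Brd8 libraries, against 552, 555 and 588 CPM in NT (log2 fold change -0.41 ± 0.0858, adjusted p = 0.00083), a smaller fall in which the groups did not overlap. Nkx6-1, a homeobox gene of ventral progenitors, had 40.8 and 49.3 CPM in the Brd8 libraries, against 111, 86.7 and 69 CPM in NT and missed the threshold (log2 fold change -0.98 ± 0.349, adjusted p = 0.0519), although it passed with only the compared groups in the fit and without NT replicate 3 (-1.12). Nkx2-1, a paralogue of Nkx2-2, fell by 2.05 log2 units, but did not pass without Brd8 replicate 1 (-2.29) or replicate 2 (-1.82). The floor plate gene Foxa2 was low, at 0.533 and 2.25 CPM in the Brd8 libraries, against 2.1, 5.6 and 1.42 CPM in NT, and the groups overlapped. Ntn1, the axon attractant netrin 1 of the floor plate and ventral progenitors, had 205 and 227 CPM in the Brd8 libraries, against 493, 443 and 371 CPM in NT (log2 fold change -1.01 ± 0.124, adjusted p = 9.48e-07).

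Gli3 (chromosome 13, 15463235 to 15730026), which acts mostly as the repressor of the Hedgehog pathway, had 140.0 and 159 CPM in the Brd8 libraries, against 31.3, 34.7 and 31.7 CPM in NT, 4.58-fold higher (log2 fold change 2.20 ± 0.242, adjusted p = 1.4e-07). Gli2, the main activator, had 89.4 and 101 CPM in the Brd8 libraries, against 33.6, 39.9 and 43.5 CPM in NT (log2 fold change 1.29 ± 0.2, adjusted p = 2.14e-05). In both, the Brd8 libraries were more than 2-fold above the highest NT library. Gli1, a target and effector of the pathway, had 61.8 and 107 CPM in the Brd8 libraries, against 32.7, 44.4 and 49.6 CPM in NT (log2 fold change 1.01 ± 0.22, adjusted p = 0.00128), opposite in direction to Ptch1, and did not pass without Brd8 replicate 2 (0.55). Pax6 (chromosome 2, 105668900 to 105697364), a paired-box gene of progenitors that Hedgehog signalling represses near the floor plate, had 86.5 and 144 CPM in the Brd8 libraries, against 22.7, 35.1 and 30.3 CPM in NT, 3.93-fold higher (log2 fold change 1.97 ± 0.213, adjusted p = 1.38e-07). Sfrp2 (chromosome 3, 83766321 to 83774316), a secreted Wnt antagonist, had the smallest p of all tested genes, with 446 and 605 CPM in the Brd8 libraries, against 121, 188 and 125 CPM in NT (log2 fold change 1.86 ± 0.166, adjusted p = 2.56e-09). Brd8 replicate 2 was the higher of the Brd8 libraries for Dbx1, Pax3, Gli3, Pax6 and Sfrp2, and both lay above all of NT.

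**Figure D2:**
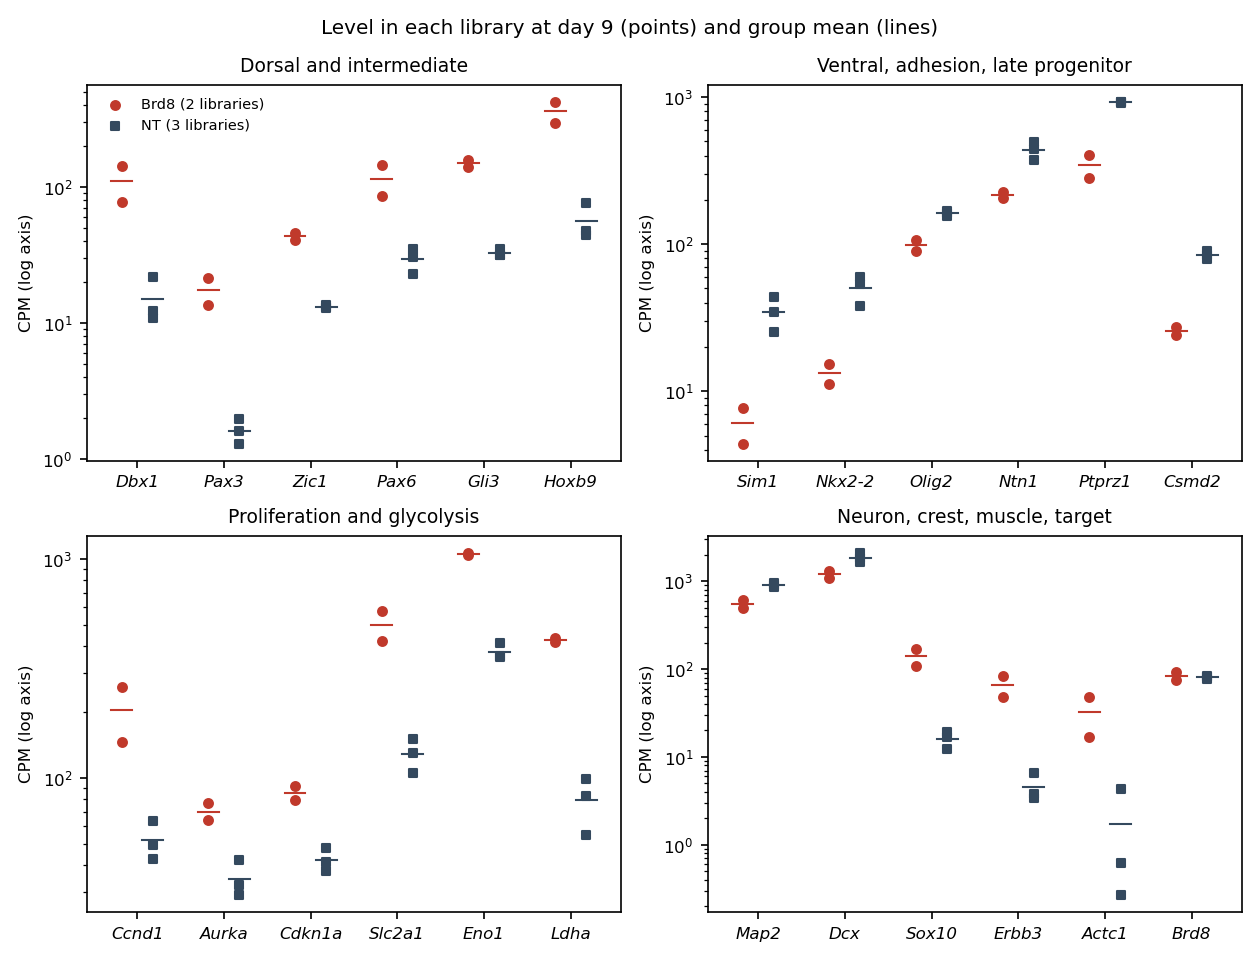
CPM on a log axis in each day 9 library, with Brd8 (red circles, 2 libraries) left of NT (dark squares, 3 libraries) for each gene and a line at the group mean. The groups are separate for every gene drawn except Brd8 itself, whose Brd8 libraries at 75.6 and 91.7 CPM lie on either side of NT.

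Hox genes of the trunk were higher in Brd8 cells. These genes give cells their position along the body axis, with higher group numbers further to the tail. Of 12 genes of groups 6 to 9, 7 rose and 0 fell (median 1.81, and 1.58 with genes at 0 in a group set to their bound). Hoxb9 (chromosome 11, 96271457 to 96276595) had 425 and 294 CPM in the Brd8 libraries, against 44, 76.4 and 47.1 CPM in NT, 6.38-fold higher (log2 fold change 2.67 ± 0.32, adjusted p = 6.11e-07). Hoxc6 had 103 and 81.9 CPM in the Brd8 libraries, against 28.4, 35.4 and 32.9 CPM in NT (log2 fold change 1.51 ± 0.26, adjusted p = 8.11e-05). Replicate 1 was the higher Brd8 library for both, and neither gene overlapped with NT. Hoxc8 (2.05), Hoxd8 (1.96) and Hoxa6 (1.65) rose too, at lower levels. Hoxc9 had 44 counts over the Brd8 libraries and 3 over NT, a ratio of rates of 21.8 (95% exact interval 7.0 to 109.9), and lost its call without any 1 of Brd8 replicate 1 (3.97), Brd8 replicate 2 (4.37), NT replicate 1 (3.66) and NT replicate 2 (3.45). Of 8 tested genes of groups 10 to 13, 0 passed in edgeR, 0 had an unadjusted p under 0.05 and 0 passed by DESeq2. Of 15 genes of groups 1 to 5, 2 rose and 3 fell (median -0.04, but 0.09 leaving out Brd8 replicate 1, -0.20 leaving out Brd8 replicate 2, 0.0 leaving out NT replicate 1, -0.013 leaving out NT replicate 2 and -0.13 leaving out NT replicate 3). Hoxd4 (0.67) and Hoxb1 (1.51) rose, and Hoxb5 (-0.70) and Hoxa4 (-0.55) fell. Hoxb5 had 54.7 and 129 CPM in the Brd8 libraries, against 165, 136 and 151 CPM in NT, so that replicate 1 alone lay far below NT. Without Brd8 replicate 1, Hoxb5 was at -0.23 and Hoxa4 at -0.16, and 2 of the 15 rose and 0 fell. Without Brd8 replicate 2, Hoxd4 was at 0.40 and Hoxb1 at 1.42, neither passed, and 0 rose and 4 fell. Without NT replicate 1, neither Hoxb5 (-0.63) nor Hoxa4 (-0.53) passed and 0 fell, and without NT replicate 3, Hoxb1 (1.27) and Hoxa4 (-0.50) did not pass and 1 rose and 2 fell. With only the compared groups in the fit 2 rose and 0 fell.

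Genes of cell proliferation were higher in Brd8 cells. All 22 mitosis genes of the list rose (median 0.64), as did 21 of 25 DNA replication genes (median 0.71), 8 of 12 replication-dependent histone genes (median 0.71) and 2 of 5 D-type cyclins and their kinases (median 1.035, and 4 of 5 by DESeq2), and 0 fell. Ccnd1 (chromosome 7, 144929931 to 144939925), cyclin D1, which drives entry into S phase, had 145 and 260.4 CPM in the Brd8 libraries, against 42.6, 63.3 and 49.2 CPM in NT, 3.91-fold higher (log2 fold change 1.97 ± 0.216, adjusted p = 1.4e-07). Ccnd2, the related cyclin D2, had 1043 and 1276 CPM in the Brd8 libraries, against 482, 604 and 461 CPM in NT (log2 fold change 1.17 ± 0.157, adjusted p = 2.87e-06). Both genes were higher in both Brd8 libraries than in any NT library. Rrm2, a subunit of ribonucleotide reductase, had 153 and 221 CPM in the Brd8 libraries, against 82.9, 107 and 89.1 CPM in NT (log2 fold change 1.00 ± 0.141, adjusted p = 5.58e-06). Mcm7, a subunit of the replicative helicase, had 191 and 225 CPM in the Brd8 libraries, against 116, 116 and 112 CPM in NT (log2 fold change 0.86 ± 0.123, adjusted p = 7.34e-06). The replication factors Cdc45 (1.37) and Cdt1 (1.12) rose by more than the median of the list. Of the mitosis genes, Aurka, the kinase Aurora A, had 63.7 and 76.2 CPM in the Brd8 libraries, against 32.3, 42 and 29 CPM in NT (log2 fold change 1.02 ± 0.158, adjusted p = 2.29e-05). Cyclin A2, from Ccna2, rose by 0.67 ± 0.11, the spindle factor Tpx2 by 0.72 ± 0.12, the kinesin Kif20a by 0.74 ± 0.119 and the linker histone gene Hist1h1a by 0.99 ± 0.165 log2 units. Without Brd8 replicate 2, 8 replication genes, 9 mitosis genes and 2 histone genes passed, with medians of 0.50, 0.52 and 0.52, and without NT replicate 3 the histone count was 5.

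Many mitosis promoters carry a cell cycle homology region (CHR, TTTGAA), which binds the complexes that keep such genes low in resting cells. In the 250 bases before each RefSeq start (GRCm38.p6, either strand), TTTGAA stood in 6 of the 18 mitosis genes with a window (33.3%), against 12.5% of 11352 tested genes with one. The last 120 bases before the start are shown for a pair of these genes that rose, Top2a (topoisomerase II alpha, chr11:99024190-99024309, minus strand) and Kif11 (a spindle kinesin, chr19:37376262-37376381, plus strand), read along the gene with the match in capitals, spelled TTCAAA where it lies on the other strand.
Top2a: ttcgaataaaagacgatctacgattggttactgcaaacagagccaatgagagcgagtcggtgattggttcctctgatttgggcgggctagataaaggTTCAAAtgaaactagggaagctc
Kif11: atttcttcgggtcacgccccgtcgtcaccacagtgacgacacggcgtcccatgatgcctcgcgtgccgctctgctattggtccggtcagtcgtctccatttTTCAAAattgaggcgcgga
The match begins 23 bases before the start in Top2a and 19 bases before it in Kif11. An E2F motif (GGCGGGAA, either strand) stood in 2 of 20 replication genes with a window (10.0%), against 3.92% of the tested genes. Top2a had 463 and 506 CPM in the Brd8 libraries, against 286, 347 and 280.1 CPM in NT (log2 fold change 0.67 ± 0.125, adjusted p = 0.000206). Kif11 had 122 and 147 CPM in the Brd8 libraries, against 94.4, 99.5 and 84.5 CPM in NT (log2 fold change 0.54 ± 0.116, adjusted p = 0.00103), and did not pass without Brd8 replicate 2 (0.40). A match is a description of these letters and not a measured binding site.

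Targets of p53, the transcription factor activated by DNA damage and other stress, included 10 of 29 that rose and 0 that fell (median 0.35). Cdkn1a (chromosome 17, 29090976 to 29100727), the cyclin kinase inhibitor p21, had 91.6 and 78.7 CPM in the Brd8 libraries, against 37.6, 47.9 and 41.3 CPM in NT (log2 fold change 1.00 ± 0.135, adjusted p = 3.12e-06). Both Brd8 libraries lay above NT. Eda2r, a receptor of the tumour necrosis factor family, had 85.9 and 91.6 CPM in the Brd8 libraries, against 51.9, 62 and 54.2 CPM in NT (log2 fold change 0.66 ± 0.125, adjusted p = 0.00024). Gtse1 (0.74) and Ckap2 (0.66), which are also expressed in dividing cells, rose as well, and so did cyclin G1 from Ccng1 (0.43). The ubiquitin ligase gene Mdm2, another direct target, had 108 and 99.4 CPM in the Brd8 libraries, against 106, 92.3 and 99.4 CPM in NT, and the groups overlapped (log2 fold change 0.07 ± 0.129, adjusted p = 0.787). The count was 4 of 29 without Brd8 replicate 2, with a median of 0.21 and Ccng1 at 0.40, and without either NT replicate 1 or NT replicate 3 it was 6. Of 6 other inhibitors of cell cycle kinases, Cdkn1c rose (0.41 ± 0.131) and Cdkn2d fell (-0.92 ± 0.271). Neither passed without Brd8 replicate 2, at 0.41 for Cdkn1c and -0.65 for Cdkn2d, and without NT replicate 3 they were at 0.32 and -0.67, again without a call. Cdkn1c also did not pass without Brd8 replicate 1 (0.40).

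Most genes of glucose use were higher in Brd8 cells. Of 26 glycolysis and hypoxia genes 19 rose and 0 fell, with a median of 1.13, and 17 to 18 rose when any 1 day 9 library was left out, while 1 fell without Brd8 replicate 1. Slc2a1 (chromosome 4, 119108711 to 119137983), the glucose transporter GLUT1, had 423 and 578 CPM in the Brd8 libraries, against 129, 151 and 105 CPM in NT, 3.88-fold higher (log2 fold change 1.96 ± 0.219, adjusted p = 1.75e-07). Ldha, which turns pyruvate into lactate, had 435 and 416 CPM in the Brd8 libraries, against 82.8, 98.9 and 54.9 CPM in NT (log2 fold change 2.42 ± 0.355, adjusted p = 1.09e-05). The lowest Brd8 library was more than 2-fold above the highest NT library in both. The lactate exporter gene Slc16a3 had 63.5 and 58.1 CPM in the Brd8 libraries, against 6.16, 9.59 and 5.94 CPM in NT (log2 fold change 3.04 ± 0.572, adjusted p = 0.000231). The enolase gene Eno1 had 1036 and 1062 CPM in the Brd8 libraries, against 358, 412 and 358 CPM in NT (log2 fold change 1.48 ± 0.155, adjusted p = 1.11e-07). Phosphoglycerate kinase from Pgk1 rose by 1.58 ± 0.207 log2 units, hexokinase 2 from Hk2 by 1.45 ± 0.2, pyruvate kinase from Pkm by 0.92 ± 0.12, Gapdh by 0.90 ± 0.115, and the growth factor gene Vegfa by 0.93 ± 0.172. Of 26 nuclear genes of oxidative phosphorylation 0 passed in edgeR, 0 had an unadjusted p under 0.05 and 0 passed by DESeq2, with a median of 0.06.

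Many glycolytic promoters carry ACGTG, the core of the hypoxia response element, which is also part of the E-box CACGTG read by Myc and other factors. It stood in the 250 bases before the start (either strand) in 15 of the 23 listed genes with a window (65.2%), against 24.2% of the 11352 tested genes. The 120 bases before the start are shown for 3 of them that rose and have 1 match in these bases, in capitals and spelled CACGT where it lies on the other strand: Slc2a1 (chr4:119108625-119108744, plus strand), Pkm (chr9:59657107-59657226, plus strand) and Hk2 (chr6:82774455-82774574, minus strand), from RefSeq on GRCm38.p6.
Slc2a1: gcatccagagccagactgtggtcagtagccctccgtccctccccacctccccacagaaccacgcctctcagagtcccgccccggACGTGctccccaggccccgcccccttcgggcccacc
Pkm: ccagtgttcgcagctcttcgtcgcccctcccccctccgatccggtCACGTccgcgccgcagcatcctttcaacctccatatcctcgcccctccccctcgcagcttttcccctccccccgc
Hk2: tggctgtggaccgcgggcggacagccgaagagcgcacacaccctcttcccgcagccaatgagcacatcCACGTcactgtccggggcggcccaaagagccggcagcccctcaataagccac
The match begins 36 bases before the RefSeq start in Slc2a1, 75 in Pkm and 52 in Hk2. The gene position given above for Slc2a1, from GENCODE, begins within the bases shown, so these sources differ in its start. The levels were 1469 and 1585 CPM in the Brd8 libraries, against 843, 811 and 773 CPM in NT for Pkm and 141 and 165 CPM in the Brd8 libraries, against 53.4, 60.0 and 53.9 CPM in NT for Hk2, with no overlap between the groups. Binding at these letters was not measured.

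Amino acid and ribosome genes were also higher. Of 18 genes of the ATF4 response, which supplies amino acids under stress, 9 rose and 0 fell (median 0.69). Psat1 (chromosome 19, 15904678 to 15947337), an enzyme of serine synthesis, had 198 and 228 CPM in the Brd8 libraries, against 80.3, 81.4 and 89.2 CPM in NT (log2 fold change 1.35 ± 0.165, adjusted p = 8.4e-07). Asns, asparagine synthetase, had 130.3 and 148 CPM in the Brd8 libraries, against 62.7, 79.2 and 77.7 CPM in NT (log2 fold change 0.93 ± 0.131, adjusted p = 6.52e-06), again with both Brd8 libraries above NT. The mitochondrial serine enzyme gene Shmt2 rose by 0.86 ± 0.145 and the amino acid transporter gene Slc7a5 by 0.77 ± 0.143. Of 31 cytosolic ribosomal protein genes 21 rose and 0 fell, by a smaller amount (median 0.42). Rps2 had 1301 and 1542 CPM in the Brd8 libraries, against 926, 1023 and 904 CPM in NT (log2 fold change 0.58 ± 0.0943, adjusted p = 3.86e-05), and Rplp0 rose by 0.60 ± 0.0988. Many ribosomal protein genes have processed pseudogenes that can share reads with them, so single members are less certain. Of 23 cholesterol synthesis genes 8 rose and 0 fell, with a median of 0.19. The counts without Brd8 replicate 2 were 4 for ATF4, where Slc7a5 did not pass (0.54), 10 for ribosomal proteins and 1 for cholesterol synthesis. The cholesterol synthesis count was 3 without Brd8 replicate 1, NT replicate 1 or NT replicate 2, and 5 without NT replicate 3.

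Of 16 proneural and Notch pathway genes 6 rose and 1 fell (median 0.41). Neurog1 had 65.2 and 106 CPM in the Brd8 libraries, against 20.2, 26.2 and 18.6 CPM in NT, 3.94-fold higher (log2 fold change 1.98 ± 0.286, adjusted p = 8.51e-06). Neurog2 had 85 and 85.7 CPM in the Brd8 libraries, against 38, 46.3 and 36.4 CPM in NT (log2 fold change 1.08 ± 0.207, adjusted p = 0.0003), and these proneural factors of the spinal cord were separate from NT in both libraries. The Notch ligand gene Jag1 rose by 0.83 ± 0.124 log2 units and the Notch target Hes5 by 1.57 ± 0.226. Neurog3, a proneural gene of the ventralmost progenitors, was the one that fell, with 2.22 and 0.715 CPM in the Brd8 libraries, against 15.5, 7.62 and 3.02 CPM in NT (log2 fold change -2.62 ± 0.653, adjusted p = 0.00455), and it did not pass without Brd8 replicate 2 (-1.97), where 3 genes of the list rose and 0 fell. Of 24 interneuron genes 9 rose and 1 fell (median 0.98). Pax2 had 41.6 and 76.7 CPM in the Brd8 libraries, against 15.4, 21.2 and 12.9 CPM in NT (log2 fold change 1.83 ± 0.227, adjusted p = 1.05e-06), and Pax8 had 10.8 and 10.6 CPM in the Brd8 libraries, against 1.32, 2.57 and 0.976 CPM in NT (log2 fold change 2.65 ± 0.407, adjusted p = 1.91e-05). Both mark inhibitory interneurons and lay above NT in both libraries. Lhx5 (2.03), Evx1 (2.10), a gene of V0 neurons, En1 (1.88), a gene of V1 neurons, and Tlx3 (2.80), a gene of dorsal excitatory neurons, also rose, Tlx3 not without Brd8 replicate 2 (2.54). Gata2, a gene of V2b interneurons, was the one that fell, by 0.84, and did not pass without Brd8 replicate 1 (-0.58).

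Motor neuron genes moved in both directions. Of 19, 3 rose and 5 fell (median -0.17). Leaving out Brd8 replicate 2 gave 5 higher and 0 lower (median 0.17), and leaving out Brd8 replicate 1 gave 2 higher and 6 lower (median -0.67). Isl1, a homeobox gene needed for motor neurons, had 59.6 and 42.1 CPM in the Brd8 libraries, against 57, 49.5 and 62.7 CPM in NT, with overlapping groups (log2 fold change -0.15 ± 0.237, adjusted p = 0.724), and was at 0.08 without Brd8 replicate 2. The nicotinic receptor gene Chrna3 rose, with 32 and 54 CPM in the Brd8 libraries, against 14.9, 15.2 and 11.9 CPM in NT (log2 fold change 1.62 ± 0.283, adjusted p = 9.5e-05). Lhx1 (0.70), a gene of interneurons and of lateral motor neurons, and the retinoic acid enzyme gene Aldh1a2 (1.32) rose too, the second not without Brd8 replicate 1 (0.95). The guidance ligand gene Slit3 fell (-0.86), but did not pass without Brd8 replicate 2 (-0.61). Summed over the 7 motor neuron markers, the Brd8 libraries had 320 and 167 CPM, and NT had 312 to 349 CPM, so the groups overlapped. Of these markers 0 were called higher and 1 lower. The 1 was Slc18a3, with 126 and 63 CPM in the Brd8 libraries, against 152, 148 and 166 CPM in NT. Of 11 transmitter genes 2 rose and 2 fell, with 1 rising without Brd8 replicate 1, Brd8 replicate 2, NT replicate 1 or NT replicate 2, and 1 falling without Brd8 replicate 2. Gad2, a GABA synthesis enzyme, had 21.5 and 21.6 CPM in the Brd8 libraries, against 9.27, 7.8 and 10.6 CPM in NT (log2 fold change 1.23 ± 0.215, adjusted p = 9.58e-05), with no overlap. The glutamate transporter gene Slc17a8 had 3 counts over the Brd8 libraries and 192 over NT, a ratio of rates of 43.0 (95% exact interval 14.5 to 210.3) in favour of NT, and did not pass without Brd8 replicate 2 (-3.93).

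General neuronal genes were lower in Brd8 cells. Of 25 pan-neuronal genes 16 fell and 1 rose (median -0.48). Gap43 (chromosome 16, 42248442 to 42340651), a growth cone protein, had 284 and 203 CPM in the Brd8 libraries, against 492, 431 and 492 CPM in NT, 1.94-fold lower (log2 fold change -0.96 ± 0.132, adjusted p = 4.46e-06). The microtubule protein gene Map2 had 614 and 491 CPM in the Brd8 libraries, against 945, 854 and 900.4 CPM in NT (log2 fold change -0.71 ± 0.119, adjusted p = 6.53e-05). Dcx, doublecortin of migrating neurons, had 1324 and 1098 CPM in the Brd8 libraries, against 1829, 1666 and 2089 CPM in NT (log2 fold change -0.62 ± 0.116, adjusted p = 0.000203). In all 3, replicate 2 was the lower Brd8 library and both lay below NT. The RNA-binding protein gene Elavl2 fell by 0.66, Elavl3 by 0.48 and the tubulin gene Tubb3 by 0.40 log2 units. Nhlh1, a factor of newly born neurons, was the 1 that rose (0.56), but not without Brd8 replicate 2 (0.37) or NT replicate 3 (0.50). The summed level of the 8 neuron markers was 3880 and 3250 CPM in the Brd8 libraries, against 4810 to 5530 CPM in NT, and 7 of the 8 fell. Without Brd8 replicate 2, 4 of the 25 genes fell and 0 rose (median -0.39), and Elavl3 (-0.39) and Tubb3 (-0.31) did not pass.

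Many adhesion and synapse genes of great length fell. Of 26 such genes 11 fell and 0 rose (median -0.73, but -1.16 without Brd8 replicate 1). Csmd2 (chromosome 4, 127987857 to 128567656), a large transmembrane protein of synapses, had 27.5 and 24 CPM in the Brd8 libraries, against 84, 79.2 and 90.2 CPM in NT, 3.29-fold lower (log2 fold change -1.72 ± 0.186, adjusted p = 1.38e-07). Pcdh9, a protocadherin, had 56.6 and 44.2 CPM in the Brd8 libraries, against 149, 117 and 152 CPM in NT (log2 fold change -1.47 ± 0.226, adjusted p = 1.96e-05). Cntnap2, a neurexin family member, had 7.2 and 8.94 CPM in the Brd8 libraries, against 22.1, 20.7 and 28 CPM in NT (log2 fold change -1.54 ± 0.248, adjusted p = 3.66e-05). The groups were separate in all 3, and the scaffold gene Magi2 (-1.40) and the teneurin gene Tenm2 (-1.23) fell as well. The count was 4, with a median of -0.45, without Brd8 replicate 2. Over all genes, those called lower spanned a median of 62.5 kb in the genome (1148 of 1187 with a position), those called higher 21.7 kb (1150 of 1173) and all tested genes 24.2 kb. A span of at least 100 kb was held by 36.6% of the genes called lower, 12.4% of those called higher and 15.1% of all tested genes. Of 27 axon guidance genes 8 fell and 2 rose (median -0.19), and without Brd8 replicate 2 these counts were 4 and 1. Without NT replicate 1 or NT replicate 2, 1 rose. The repellent Slit1 had 124 and 90.5 CPM in the Brd8 libraries, against 253, 253 and 210.3 CPM in NT (log2 fold change -1.16 ± 0.181, adjusted p = 2.42e-05), and Sema6a fell by 0.78 log2 units. Robo3, a receptor that lets commissural axons cross the midline, had 93.4 and 179 CPM in the Brd8 libraries, against 64.1, 74.8 and 42.1 CPM in NT (log2 fold change 1.17 ± 0.209, adjusted p = 0.00013), with replicate 2 far above replicate 1 and no call without it (0.62).

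Genes of late progenitors were lower. Of 23 genes of gliogenesis and late progenitors, 7 fell (median -0.24, but -0.43 leaving out Brd8 replicate 1 and -0.43 leaving out Brd8 replicate 2) and 0 rose. Ptprz1 (chromosome 6, 22875502 to 23052916), a receptor phosphatase of radial glia, had 406 and 282 CPM in the Brd8 libraries, against 931, 907 and 930.0 CPM in NT, 2.69-fold lower (log2 fold change -1.43 ± 0.171, adjusted p = 6.11e-07). The nuclear factor I gene Nfia had 110.3 and 58.6 CPM in the Brd8 libraries, against 163, 161 and 184 CPM in NT (log2 fold change -1.01 ± 0.189, adjusted p = 0.000213), and Nfib (-1.20) and Nfix (-1.21) fell with it. Brd8 libraries lay below NT in each, but Nfia (-0.62) and Nfib (-0.90) did not pass without Brd8 replicate 2, where 3 of the list fell. Without Brd8 replicate 1 or NT replicate 2, 1 of the list rose. Of 17 general neural progenitor genes 4 fell and 3 rose (median -0.06, but -0.003 leaving out Brd8 replicate 1, -0.17 leaving out Brd8 replicate 2, -0.03 leaving out NT replicate 2 and -0.12 leaving out NT replicate 3), Pax6 and Hes5 among those that rose. Fabp7, a fatty acid binding protein of radial glia, had 153 and 130.1 CPM in the Brd8 libraries, against 339, 348 and 301 CPM in NT (log2 fold change -1.22 ± 0.19, adjusted p = 2.21e-05). The transcription factor gene Rfx4 fell by 0.98 and the intermediate filament gene Nes by 0.64 log2 units. Sox2, the pan-neural stem cell factor, had 160.1 and 172 CPM in the Brd8 libraries, against 183, 176 and 152 CPM in NT, with overlapping groups (log2 fold change -0.04 ± 0.127, adjusted p = 0.881). Genes that are high early in development went the other way, and of 17 such genes 9 rose and 0 fell (median 0.375, but 0.61 leaving out Brd8 replicate 1). Crabp1, a retinoic acid binding protein, had 97.2 and 148 CPM in the Brd8 libraries, against 60.2, 69.5 and 60.5 CPM in NT (log2 fold change 0.96 ± 0.142, adjusted p = 1.29e-05). Mycn had 96.3 and 102 CPM in the Brd8 libraries, against 64.8, 60.8 and 66.4 CPM in NT (log2 fold change 0.63 ± 0.128, adjusted p = 0.000565). Crabp2 (1.03), Sall4 (0.96) and Lin28b (0.49) rose, but not without Brd8 replicate 2 (0.66, 0.59 and 0.25 in that order), where 2 of the 17 rose. Without NT replicate 3 the count was 5 and Lin28b was at 0.45, and without NT replicate 1 it was 6. Of 15 retinoic acid genes 1 rose and 1 fell (median 0.25, but 0.06 leaving out Brd8 replicate 1 and 0.16 leaving out NT replicate 3), and 0 fell without Brd8 replicate 1, Brd8 replicate 2 or NT replicate 1. Cyp26b1, which breaks down retinoic acid, was the 1 that rose, with 31.6 and 34.2 CPM in the Brd8 libraries, against 12.7, 8.72 and 14.9 CPM in NT (log2 fold change 1.45 ± 0.318, adjusted p = 0.00126), and both Brd8 libraries lay more than 2-fold above NT.

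Neural crest genes were higher in Brd8 cells, with 8 of 16 higher and 2 lower (median 0.69, but 1.14 leaving out NT replicate 2). The count of lower genes was 0 without Brd8 replicate 2 and 1 without NT replicate 1 or NT replicate 2. The neural crest gives rise to peripheral neurons and glia, pigment cells and parts of the face. Sox10 (chromosome 15, 79154908 to 79165240), a factor of crest cells, their glia and oligodendrocytes, had 169.5 and 109 CPM in the Brd8 libraries, against 12.5, 16.7 and 19.2 CPM in NT, 8.61-fold higher (log2 fold change 3.11 ± 0.485, adjusted p = 2.32e-05). Erbb3, the neuregulin receptor of those cells, had 82.7 and 48.5 CPM in the Brd8 libraries, against 3.43, 6.52 and 3.81 CPM in NT (log2 fold change 3.79 ± 0.56, adjusted p = 1.2e-05). Tfap2a, a factor of the early crest, had 59.7 and 52.7 CPM in the Brd8 libraries, against 5.22, 12.1 and 3.81 CPM in NT (log2 fold change 2.93 ± 0.519, adjusted p = 0.000118). Replicate 1 was the higher Brd8 library for each, and none overlapped with NT. Foxd3, of crest and V1 interneurons, rose by 2.66 ± 0.498 log2 units. The endothelin receptor gene Ednrb fell by 0.36 log2 units, and did not pass without Brd8 replicate 2 (-0.26), NT replicate 1 (-0.34) or NT replicate 2 (-0.34). The summed level of 7 crest markers was 317 and 244 CPM in the Brd8 libraries and 63.8 to 84.9 CPM in NT. That of 7 oligodendrocyte lineage markers, Sox10 among them, was 321 and 218 CPM in Brd8 and 117 to 139 CPM in NT. Sox10 alone held 169.5 and 109 CPM of the oligodendrocyte sums in Brd8 and 12.5 to 19.2 CPM in NT, and no sum was made without it. Of these 7 markers 3 were called higher, Sox10 among them, and 0 lower. Olig1 lay below NT in both Brd8 libraries without a call, and Mbp was not called. Of 14 oligodendrocyte lineage genes 4 rose and 1 fell (median 0.36, but 0.22 leaving out Brd8 replicate 1, 0.77 leaving out Brd8 replicate 2 and 0.73 leaving out NT replicate 2), the 1 being Nkx2-2, with 2 rising and 2 falling without Brd8 replicate 1, and 2 rising and 1 falling without Brd8 replicate 2.

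Muscle genes were low in NT and many were higher in Brd8, with 9 of 18 higher and 0 lower (median 2.95, and 2.62 with genes at 0 in a group set to their bound, but 1.95 leaving out Brd8 replicate 1 and 4.43 leaving out NT replicate 2). Actc1 (chromosome 2, 114047282 to 114053548), cardiac actin, had 47.6 and 16.8 CPM in the Brd8 libraries, against 0.623, 4.31 and 0.266 CPM in NT (log2 fold change 4.04 ± 0.728, adjusted p = 0.000143). The embryonic myosin gene Myh3 had 46.9 and 23.4 CPM in the Brd8 libraries, against 2.26, 4.91 and 0.798 CPM in NT (log2 fold change 3.63 ± 0.723, adjusted p = 0.00046). Ttn, titin, had 121 and 48.3 CPM in the Brd8 libraries, against 7.87, 9.45 and 9.23 CPM in NT (log2 fold change 3.25 ± 0.65, adjusted p = 0.000487). In each, replicate 1 was the higher Brd8 library, and both lay above every NT library. Mstn, the secreted muscle growth inhibitor myostatin, rose by 3.89 ± 0.9 log2 units. The troponin gene Tnnt2 had 62 counts over the Brd8 libraries and 0 over NT, at least 30.8-fold higher in Brd8 against 3 counts over the group, with no call without Brd8 replicate 1, where 4 of the 18 rose. The 6 muscle markers summed to 80.0 and 29.7 CPM in Brd8 and to 0.71 to 10.3 CPM in NT. Of 19 mesoderm genes 3 rose and 0 fell (median 0.71, but 0.08 leaving out Brd8 replicate 1). Meox1, of the somites, had 6.13 and 7.4 CPM in the Brd8 libraries, against 0.701, 0.872 and 0.621 CPM in NT (log2 fold change 3.18 ± 0.673, adjusted p = 0.0009), and Foxc2, of somites and sclerotome, rose by 1.77 ± 0.408. The 8 mesoderm markers summed to 41.6 and 35.4 CPM in Brd8 and 14.9 to 16.5 CPM in NT, with Msgn1 at 0 in all 5 libraries. The part of other cell types in the results above was not tested.

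Of 19 pluripotency genes 0 rose and 1 fell (median -0.98), while 4 fell and 1 rose without the filter on low counts and 0 fell without either Brd8 replicate or NT replicate 1. Pou5f1, the factor Oct4, had 4.71 and 3.01 CPM in the Brd8 libraries, against 15.5, 11.4 and 7.72 CPM in NT and missed the threshold (log2 fold change -1.59 ± 0.572, adjusted p = 0.0526), although it passed by DESeq2 and without NT replicate 3 (-1.81). Nanog had 4 and 2.66 CPM in the Brd8 libraries, against 9.82, 10.9 and 10.2 CPM in NT (log2 fold change -1.64 ± 0.869, adjusted p = 0.21), below NT in both libraries but without a call. The 8 pluripotent cell markers summed to 26.0 and 19.7 CPM in Brd8 and 47.4 to 63.1 CPM in NT, and the 8 endoderm markers to 122 and 121 CPM in Brd8 and 180 to 195 CPM in NT. Most of the endoderm sums came from Cxcr4, with 115 and 103 CPM in Brd8 and 163 to 174 CPM in NT. Among these markers 3 were under 1 CPM in every library compared. Of 19 endoderm and epithelium genes 1 fell (median -0.36, but -0.55 leaving out Brd8 replicate 2, -0.59 leaving out NT replicate 1, -0.09 leaving out NT replicate 2 and -0.64 leaving out NT replicate 3), with 3 without Brd8 replicate 2, 2 without NT replicate 1 and 2 by DESeq2. It was the chemokine receptor gene Cxcr4, which neural and other progenitors also express, with 115 and 103 CPM in the Brd8 libraries, against 174, 166 and 163 CPM in NT (log2 fold change -0.62 ± 0.126, adjusted p = 0.000595). Astroglial markers summed to 189 and 202 CPM in Brd8 and 173 to 184 CPM in NT, with S100b at 0. Endothelial and blood markers summed to 34.9 and 32.4 CPM in Brd8 and 19.7 to 29.9 CPM in NT, with Gata1, Hba-a1 and Ptprc at 0. Tal1 held most of these sums, with 29.4 and 29.5 CPM in the Brd8 libraries, against 21.5, 14.7 and 16.1 CPM in NT. It was the 1 marker called higher. The 1 called lower was Pecam1, at 0.267 and 0.204 CPM in Brd8 and 1.7 to 2.18 CPM in NT. Of 9 endothelium and blood genes 1 rose and 2 fell (median -1.24, and 0.0 with genes at 0 set to their bound, but -0.28 leaving out Brd8 replicate 2 and 0.0 leaving out NT replicate 1), but 0 in either direction without Brd8 replicate 1 or Brd8 replicate 2, 0 rising without NT replicate 2, and 1 falling without NT replicate 3. Of 6 germline genes 1 fell (median -1.05, but -3.37 leaving out Brd8 replicate 2), and 0 without Brd8 replicate 1, Brd8 replicate 2 or NT replicate 1. The 12 markers of neural progenitors, the cell type in the labels, were all detected and summed to 2320 and 2450 CPM in Brd8 and 2610 to 2930 CPM in NT. Of 22 immediate early and stress genes 4 rose and 0 fell (median 0.53), with 2 rising without Brd8 replicate 1 or NT replicate 3 and 8 without the filter. Of 25 imprinted genes 8 fell and 4 rose (median -0.26), and Nnat, a membrane protein of neurons, had 952 and 792 CPM in the Brd8 libraries, against 1552, 1571 and 1652 CPM in NT (log2 fold change -0.87 ± 0.136, adjusted p = 2.32e-05). The long noncoding RNA gene Meg3 fell by 0.65 log2 units, but not without Brd8 replicate 2 (-0.55), where 3 imprinted genes fell and 2 rose. The number that rose was 1 without Brd8 replicate 1 and 2 without NT replicate 1 or NT replicate 3.

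**Figure D3:**
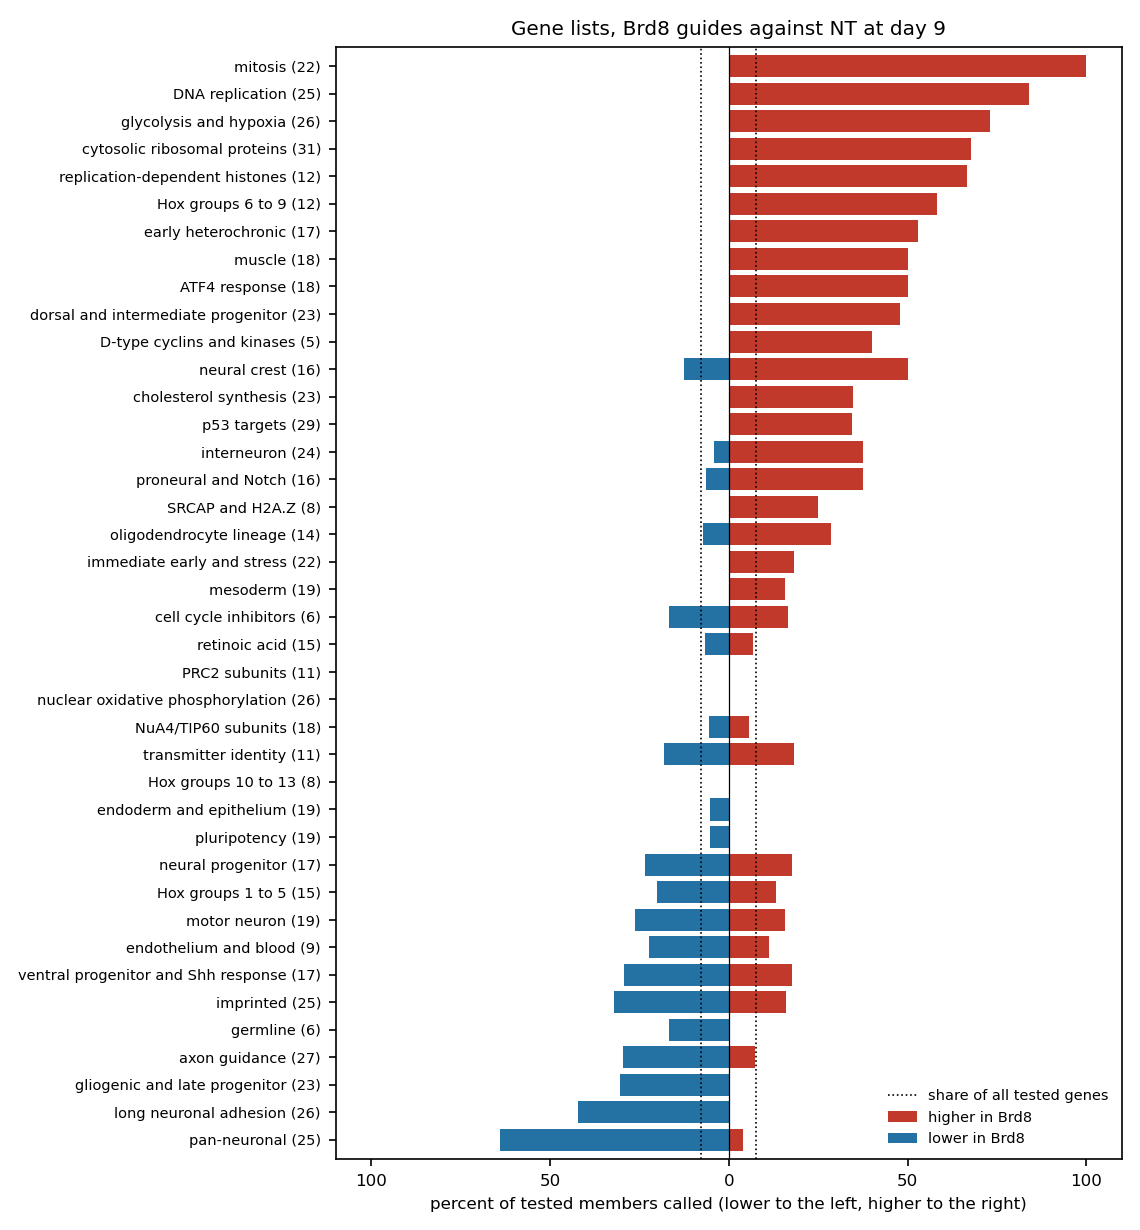
Percent of the tested members of each gene list (number tested in brackets) called higher in Brd8 (red, to the right) or lower (blue, to the left) at day 9, with dotted lines at the shares of all tested genes, 7.72% higher and 7.81% lower. Mitosis, with 22 of 22 higher, stands at the top and pan-neuronal genes, with 16 of 25 lower, at the bottom.

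Some of the largest fold changes were in genes at low levels in NT. Tlx2, a homeobox gene of crest-derived neurons, had 160 counts over the Brd8 libraries and 1 over NT, a ratio of rates of 238 (95% exact interval 42.1 to 9465). Prdm13, a repressor in dorsal neural progenitors, had 3.64 and 5.87 CPM in the Brd8 libraries, against 0.156, 0.0459 and 0.266 CPM in NT (log2 fold change 5.04 ± 0.928, adjusted p = 0.000181). Sema3g, a secreted semaphorin, had 18 and 11.7 CPM in the Brd8 libraries, against 1.01, 0.597 and 0.177 CPM in NT (log2 fold change 4.60 ± 0.866, adjusted p = 0.000234). All 3 were at or near 1 CPM or less in NT and above 3 CPM in both Brd8 libraries. Among the genes with the smallest p that fell were Etv1, an ETS factor gene, with 31.8 and 35.4 CPM in the Brd8 libraries, against 74.4, 88.6 and 90.4 CPM in NT (log2 fold change -1.33 ± 0.169, adjusted p = 1.43e-06), and Ablim1, an actin-binding protein gene, with 43.8 and 34.4 CPM in the Brd8 libraries, against 104, 92.5 and 115 CPM in NT (log2 fold change -1.41 ± 0.166, adjusted p = 4.66e-07). Zmynd11, a reader of methylated histone H3.3, fell by 0.73 log2 units with no overlap between the groups.

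The same guides were measured at day 7 and day 11 in other libraries of both arms. Of the tested genes 4.75% were called at day 7, with 198 genes (1.3%) higher and 524 (3.45%) lower, and 17.8% at day 11, with 1562 (10.3%) higher and 1137 (7.48%) lower. Of the 1173 genes higher at day 9, 125 (10.7%) were also called higher at day 7 and 713 (60.8%) at day 11, which made 63.1% and 45.6% of the genes higher at those days. Of the 1187 lower at day 9, 344 (29.0%) were called lower at day 7 and 516 (43.5%) at day 11, 65.6% and 45.4% of the genes lower at those days. Calls in the opposite direction numbered 0 and 3 at day 7, and 10 and 11 at day 11. All 3 days called 98 genes higher and 178 lower, and 423 higher and 497 lower genes were called at day 9 alone. Day 7 and day 11 Brd8 cells had 3 libraries where day 9 had 2, so counts of calls at different days do not compare sizes of effect. Of the dorsal list 8, 11 and 13 of 23 were called higher at days 7, 9 and 11, and of Hox groups 6 to 9, 7, 7 and 8 of 12. Mitosis genes were called higher in 2, 22 and 22 of 22. Pan-neuronal genes were called lower in 17, 16 and 1 of 25, and higher in 0, 1 and 5 of them. Muscle genes were called higher in 0, 9 and 11 of 18. The day 7 count of 722 genes became 233 without Brd8 day 7 replicate 1, 452 without replicate 2, 422 without NT day 7 replicate 2 and 352 without replicate 3.

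A test of the difference between the Brd8 effects at day 9 and day 7 called 28 genes (0.184%), 16 upward (0.105%) and 12 downward (0.0789%). Sim1 stood at 6.18 ± 0.741 CPM in Brd8 cells and 4.17 ± 0.935 CPM in NT cells at day 7 (SD, n = 3 each), at 6.06 ± 2.36 CPM in Brd8 and 34.5 ± 9.13 CPM in NT at day 9 (n = 2 and n = 3), and at 16.2 ± 3.27 CPM in Brd8 and 60.7 ± 8.93 CPM in NT at day 11 (n = 3 each). Its effect changed by -3.16 ± 0.436 log2 units between day 7 and day 9 (adjusted p = 9.56e-05). Etv1 (-1.64 ± 0.225, adjusted p = 9.56e-05), Ntn1 (-0.83), Rfx4 (-0.78), Cntnap2 (-1.44) and Neurog3 (-9.45) also moved down, and Sfrp2 (1.51 ± 0.224, adjusted p = 0.00029), Slc2a1 (1.45), Ccnd1 (1.35), Gapdh (0.70), Gad2 (1.63) and the receptor genes Chrm4 (1.89) and Grm2 (1.74) moved up. Under all 18 alternatives Sim1, Etv1, Neurog3 and Sfrp2 kept this call. It was lost under 3 of them for Gad2, 4 for Ntn1, 6 for Slc2a1, 8 each for Gapdh and Chrm4, 9 each for Ccnd1 and Grm2, and 11 each for Rfx4 and Cntnap2, with the sign kept. Neurog3 was at 0 in every NT library at day 7, so its fitted size is no measured fold. Leaving out Brd8 day 9 replicate 2 ended the call for each of these 9 genes but Ntn1, with Ccnd1 at 0.87 (adjusted p = 0.325 in edgeR), and each other day 7 or day 9 library of the 2 arms, left out alone, ended at least 1 of these calls. Nkx2-2 was lower in Brd8 at each day, with log2 fold changes of -1.57, -1.94 and -1.75 at days 7, 9 and 11, and no difference between days was called. Between day 9 and day 11 the effect differed for 155 genes (1.02%), 87 upward (0.572%) and 68 downward (0.447%). Elavl2 (0.83) and Ablim1 (0.99), lower at day 9, and Cdkn2d (1.44) moved up, as did Nhlh1 (1.22), Syt13 (1.84), a synaptotagmin gene, and Filip1 (1.77). Syt13 and Filip1 were not called at day 9 (-0.54 and -0.53). Sall4 (-1.46), the carbonic anhydrase gene Car2 (-3.18), Ndrg2 (-3.30) and the aldolase gene Aldoc (-2.71), higher at day 9, moved down. Elavl2, Nhlh1, Filip1 and Car2 kept this call under all 18 alternatives, and Cdkn2d lost it under 9 (adjusted p up to 0.26). Ablim1 lost it under 3, without Brd8 day 9 replicate 2, Brd8 day 11 replicate 3 or NT day 9 replicate 3. It was lost for Sall4 without Brd8 day 9 replicate 2 (-1.09), for Ndrg2 (-2.37) and Aldoc (-1.88) without Brd8 day 9 replicate 1, and for Syt13 with only the compared groups. At day 9 itself, Car2 did not pass without Brd8 replicate 2 (1.56). Without Brd8 replicate 1, Ndrg2 was at 0.77 and Aldoc at 0.41, without NT replicate 3 at 1.38 and 1.20, and none of these passed. Ndrg2 also did not pass without NT replicate 2 (1.47), nor Aldoc without NT replicate 1 (1.06). The counts depended on single libraries. That between day 7 and day 9 was 7 to 16 without any 1 of the 6 day 7 libraries, Brd8 day 9 replicate 2, NT day 9 replicate 1 and NT day 9 replicate 3, and 78 without Brd8 day 9 replicate 1. That between day 9 and day 11 was 59 to 102 without any 1 of Brd8 day 9 replicate 2, NT day 9 replicates 1 and 3, Brd8 day 11 replicates 2 and 3, and NT day 11 replicates 2 and 3.

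**Figure D4:**
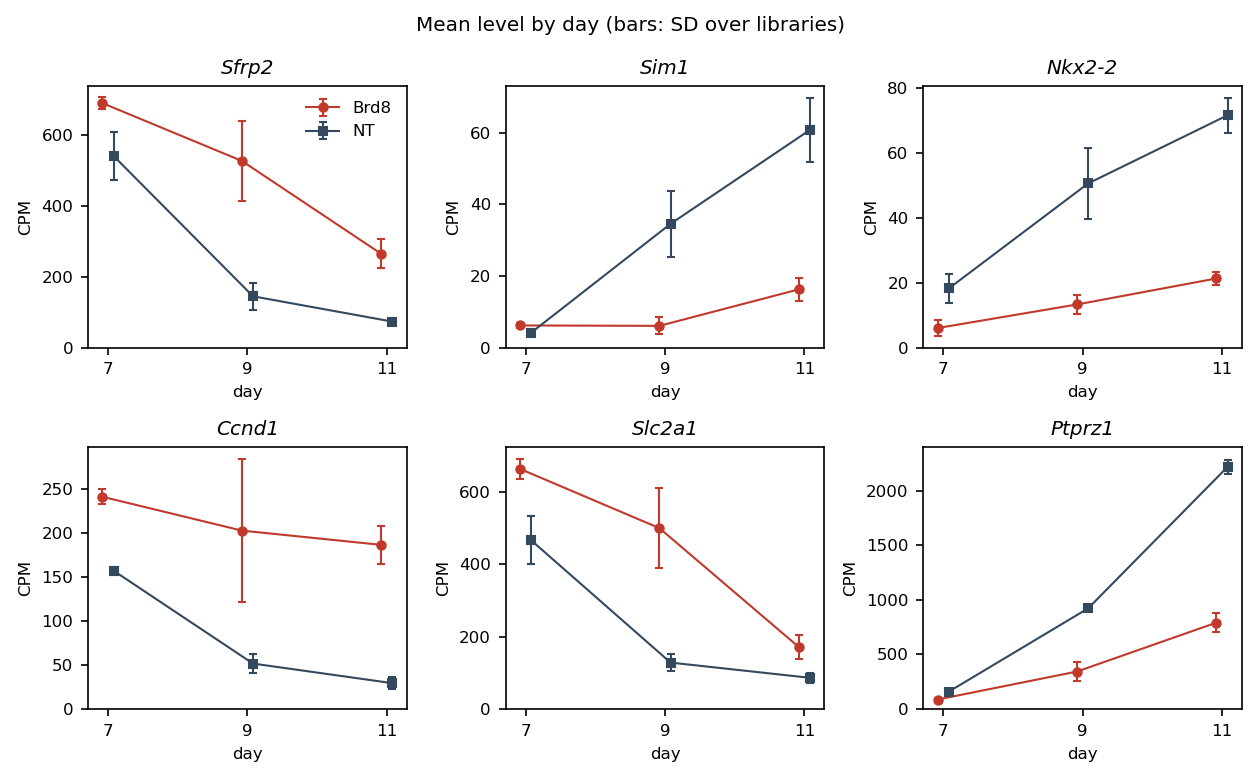
Mean CPM of 6 genes at days 7, 9 and 11 in Brd8 (red circles) and NT (dark squares), with the SD over libraries (3 a group, and 2 for Brd8 at day 9). At day 9, Sfrp2, Ccnd1 and Slc2a1 are higher and Sim1, Nkx2-2 and Ptprz1 lower in Brd8 than in NT.

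The genes called at day 9 were also read in the time course of NT cells, in which NT at day 11 was compared with NT at day 7, so that no library was shared. Between those days 45.2% of all tested genes changed in NT, with 21.9% that rose and 23.3% that fell. Of the 1173 genes higher in Brd8 at day 9, 749 (63.9%) fell and 126 (10.7%) rose with time in NT, with a median log2 change of -0.72. Of the 1187 genes lower in Brd8, 767 (64.6%) rose and 78 (6.57%) fell with time in NT, with a median of 0.51. Ccnd1 changed by -2.41, Sfrp2 by -2.88 and Slc2a1 by -2.43 log2 units from day 7 to day 11 in NT, and all were higher in Brd8 at day 9. Ptprz1 changed by 3.80, Sim1 by 3.90 and Slit1 by 3.38, and all were lower in Brd8. Other genes had the same sign in both. Hoxb9 (1.00), Sox10 (5.49), Erbb3 (2.58), Pax8 (1.15) and Evx1 (1.38) rose with time in NT and were higher in Brd8 at day 9. Ldha (0.40, adjusted p = 0.343 in edgeR) and Pgk1 (0.42, adjusted p = 0.0713 in edgeR) did not pass in the NT time course. Whether the Brd8 cells were at another point of that course was not tested.

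**Figure D5:**
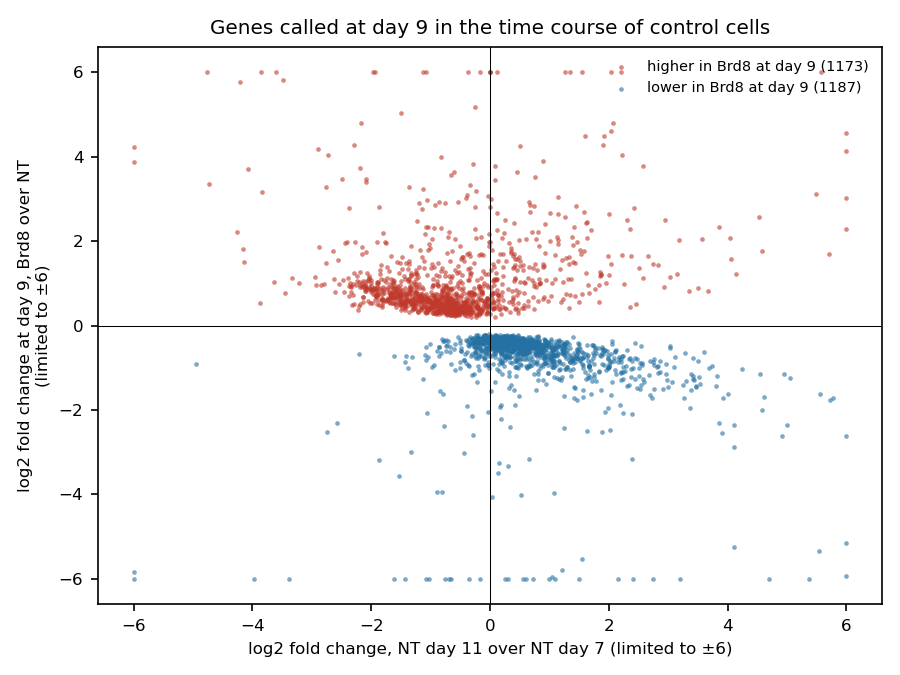
Log2 fold change at day 9, Brd8 over NT (vertical axis), against the log2 fold change of NT at day 11 over NT at day 7 (horizontal axis), both limited to ±6, for the genes called at day 9. Of the genes higher in Brd8 (red), 749 of 1173 fell with time in NT, and of those lower in Brd8 (blue), 767 of 1187 rose.

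Brd8 cells were set directly against cells with guides against Eed, a core subunit of the PRC2 complex that methylates histone H3 at silent genes, at the same day. In edgeR 17 of the 15204 genes (0.112%) were called, 1 higher (0.00658%) and 16 lower (0.105%) in Brd8, and 1476 had an unadjusted p under 0.05. Sim1 was at 6.06 ± 2.36 CPM in Brd8 cells and 23.8 ± 2.41 CPM in Eed cells (SD, n = 2 and n = 3; log2 fold change -2.01 ± 0.315, adjusted p = 0.00278). Nkx2-2 was at 13.3 ± 2.83 CPM in Brd8 cells and 33.8 ± 7.29 CPM in Eed cells (-1.37 ± 0.273, adjusted p = 0.0206). Both ventral genes were lower with Brd8 guides than with Eed guides, but neither passed with only the compared groups in the fit (adjusted p = 0.16 for Sim1 and 0.314 for Nkx2-2) or without Brd8 replicate 2 (0.142 and 0.29), nor Nkx2-2 without Eed replicate 1 or Eed replicate 2. Csmd2 (-1.03), Ablim1 (-0.86), Etv1 (-0.84), Ptprz1 (-0.82), Rfx4 (-0.64) and Ntn1 (-0.60) were lower too. Sfrp2 was the 1 gene higher, at 526 ± 112 CPM in Brd8 cells and 294 ± 84.4 CPM in Eed cells (0.84 ± 0.165, adjusted p = 0.0197). Sfrp2 and the 6 genes before it did not pass with only the compared groups (adjusted p = 0.542 to 0.553), without Brd8 replicate 2 or without Eed replicate 1. Etv1, Rfx4 and Ntn1 also did not pass without Brd8 replicate 1, and Ptprz1, Rfx4 and Ntn1 without Eed replicate 2. Genes without a call include Dbx1 (0.83 ± 0.336), Hoxb9 (1.02 ± 0.309), Sox10 (1.22 ± 0.454) and Gli3 (0.73 ± 0.235), whose estimates lay above Eed with wide errors, so a missing call does not show that the 2 sets of guides act alike. The count of called genes ran from 1 with only the compared groups in the fit to 348 without the filter on low counts, and was 105 by DESeq2, 3 without Brd8 replicate 2, 27 without Brd8 replicate 1, and 3, 10 and 102 without Eed replicates 1, 2 and 3.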

How the data were processed

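Total RNA was extracted with on-column DNase treatment, and directional, ribosomal RNA-depleted libraries were made, per the labels' protocols; the labels' entries of genomic DNA as molecule and library source go against this. The authors deposited 1 table of estimated counts for 24410 gene symbols in 41 libraries, named as raw, in which 29525 values (2.95%) in 2426 genes are not whole. Per the submitters' processing notes the build was mm10 and DESeq2 was used; the sources used here do not give the aligner, the counting tool, its strand setting or the annotation, so overlapping genes on opposite strands may share counts.

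Counts were rounded to whole numbers. Genes were kept by edgeR's filterByExpr (15204 kept, 9206 not tested) and tested in R 4.3.3 with edgeR 4.0.16 (TMM scaling, quasi-likelihood F test, 2-sided, Benjamini-Hochberg adjustment over all tested genes, called at an adjusted p under 0.05) in 1 fit of all 41 libraries with 1 mean for each of 15 groups, which gave a common biological coefficient of variation of 0.182. The adjusted p-values in the text are from this fit, and ± is the SE of the fit unless SD is named. CPM (counts scaled to library size) use the TMM-scaled totals, and totals hold Rn45s, the ribosomal RNA precursor. The 95% intervals of ratios of rates are exact and, like the floor of 3 counts, cover counting error only. Tested on simulated data of the day 9 comparison (14636 genes), the fit recovered 43.3% of 67 genes changed 1.5-fold, 85.1% of 67 changed 2-fold and 98.5% of 66 changed 4-fold, with 6 false calls (3.82% of calls). Only these genes were changed, none of them of low level, and every other gene had 1 mean in all 15 groups. All libraries took the same trend of spread by level, so the larger spread between the Brd8 libraries was not modelled. The shares hold for that setting and not for the real comparison.

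Alternatives were DESeq2 1.42.0 (Wald test), its size factors in edgeR, no filter on low counts, only the compared groups in the fit, the replicate number as a block, leaving out Rn45s, leaving out libraries whose best correlation within their group was under 0.95 (NT day 11 replicate 3 and Eed day 11 replicate 3), and leaving out each compared library in turn. Gene positions are from GENCODE M21 (GRCm38, the same assembly as mm10), and promoter sequences from RefSeq. Python 3.11.15 with pandas 2.3.3, scipy 1.17.1 and matplotlib 3.10.9 was used for tables and figures.

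The samples compared, the 40 gene lists and the marker lists were chosen with earlier results of these data known, so lists are described by counts and medians with no test. Named genes were Brd8, the 15 highest and 15 lowest changes among called genes whose groups did not overlap and whose higher group averaged at least 2 CPM, the 10 smallest p each way, up to 4 members of each list with the smallest p, and the 4 highest and 4 lowest called in each difference; 206 genes met this rule. Of the 151 genes with values in the text, 117 met it and 34 were chosen after their values were seen. The 1047 clone-like symbols tested are not named, and a few results are not reported here.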

Additional observations from a re-analysis of the deposited data

Results flagged for a closer look

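The effect of Brd8 guides differed between days, by edgeR's test of the difference itself with Benjamini-Hochberg adjustment over 15204 genes, for 23 of the genes with values in the text. From day 7 to day 9 the log2 fold change of Brd8 over NT moved down by more than 1 unit for Sim1 (-3.16), Etv1 (-1.64), Cntnap2 (-1.44) and Neurog3 (-9.45), and by less for Ntn1 (-0.83) and Rfx4 (-0.78). Neurog3 was at 0 in every NT library at day 7, so its fitted size is no measured fold. The fold change moved up for the Wnt antagonist gene Sfrp2 (1.51), Slc2a1 (1.45), Ccnd1 (1.35), Gapdh (0.70), Gad2 (1.63), the muscarinic receptor gene Chrm4 (1.89) and the glutamate receptor gene Grm2 (1.74). Of these, Sim1, Etv1, Neurog3 and Sfrp2 kept the call under all 18 alternatives. It was lost under 3 for Gad2, 4 for Ntn1, 6 for Slc2a1, 8 for Gapdh and Chrm4, 9 for Ccnd1 and Grm2 and 11 for Rfx4 and Cntnap2.

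From day 9 to day 11 the effect moved up for the neuronal genes Elavl2 (0.83), Nhlh1 (1.22), Syt13 (1.84) and Filip1 (1.77), for the actin-binding protein gene Ablim1 (0.99) and for the kinase inhibitor gene Cdkn2d (1.44). It moved down for Sall4 (-1.46), Ndrg2 (-3.30), Car2 (-3.18) and Aldoc (-2.71). The call was lost under 9 of 18 alternatives for Cdkn2d, 3 for Ablim1 and 1 each for Sall4, Ndrg2, Aldoc and Syt13. Nhlh1 was at -0.24, 0.56 and 1.79 at days 7, 9 and 11, and Elavl2 at -0.49, -0.66 and 0.18.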

How the results depend on the processing

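The number of genes called at day 9 (2360) was 2674 by DESeq2, 2349 with DESeq2's size factors, 2607 without the filter, 2241 with only the compared groups, 2649 with the replicate number as a block, 2712 without the libraries of low agreement, 2340 without Rn45s and 845 to 2185 with 1 library left out. Of the 2360, 2341 by DESeq2, 1995 with only the compared groups, 767 without Brd8 replicate 2 and 1544 to 2004 without another day 9 library were called in the same direction. Of the 140 genes with values in the text that were called, 99 were called under every alternative, and 3 genes without a call changed sign with 1 library left out: Brd8 (log2 fold change -0.0878 to 0.192, negative without Brd8 replicate 2), Isl1 (-0.42 to 0.0813, positive without Brd8 replicate 2) and Sox2 (-0.116 to 0.0139, positive without Brd8 replicate 1 or NT replicate 1).
The other counts moved more. The difference between day 9 and day 7 (28) was 102 by DESeq2, 432 without the filter, 126 with the replicate block, 46 without the libraries of low agreement, 150 with only the compared groups and 7 to 78 with 1 library left out. That between day 11 and day 9 (155) was 306 by DESeq2, 434 without the filter, 86 with only the compared groups and 59 to 182 with 1 left out. Brd8 against Eed (17) was 105 by DESeq2, 348 without the filter, 84 with the replicate block, 36 without the libraries of low agreement, 1 with only the compared groups and 3 to 102 with 1 left out. Day 7 (722) was 1179 without the filter, 1192 with only the compared groups and 233 to 899 with 1 left out, and day 11 (2699) was 1941 to 2625 and the NT time course (6868) 6053 to 6526 with 1 left out. The cause was not tested. Hox groups 10 to 13 gave no value with only the compared groups, since the filter left none of them. For libraries with the same replicate number at day 9, deviations from the group mean had correlations over genes of -0.0187 and 0.016, for the 2 numbers shared. With 2 Brd8 libraries their deviations mirror each other, so these values cannot tell whether the numbers pair libraries. The labels name no shared batch, and the main fit did not use the numbers as pairs. Under the block Cdkn2d and Aldoc were not called. In the simulated day 9 comparison 43.3% of genes changed 1.5-fold were recovered, a share that holds for that setting only. Changes under 2-fold may also be missed in the real comparison, at a share that was not measured.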
